A study of Mus musculus with 8 samples.

Results

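The 9 genes described here encode the main organic anion and organic cation carriers of the kidney tubule: Slc22a2, Slc22a4, Slc22a6, Slc22a7, Slc22a8, Slc22a12, Slco1a1, Slc47a1 and Abcc4. They were taken by gene name from the deposited expression table, which lists 54251 genes, and all 9 were in it. RNA was measured by poly(A)-selected sequencing in whole kidneys of adult male C57BL/6 mice in 4 groups. KO_IR were kidney-specific G9a knockout mice after renal ischemia-reperfusion (IR), WT_IR were wild-type mice after IR, KO were G9a knockout mice and WT were wild-type mice, both without an IR label. The labels describe a clamp on the left renal pedicle for 45 min and a harvest at day 3. Each group has 2 libraries, and each library is a pool of kidney RNA from 3 mice. G9a, encoded by Ehmt2, is a histone H3 lysine 9 methyltransferase. The labels name neither the promoter that drives the deletion nor whether the KO and WT kidneys came from operated mice.

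The proximal tubule clears drugs, toxins and metabolites from blood into urine in a pair of steps, uptake across the basolateral membrane and release across the brush border. OAT1 (Slc22a6) and OAT3 (Slc22a8) take up organic anions in exchange for intracellular alpha-ketoglutarate, which sodium-coupled dicarboxylate carriers replenish. OCT2 (Slc22a2) takes up organic cations along the membrane potential, and MATE1 (Slc47a1) releases them into the urine in exchange for protons. ABC pumps such as MRP4 (Abcc4) use ATP to move anions out of the cell. In bulk tissue, fewer cells of a type and less RNA per cell cannot be told apart.

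Between 14965670 and 17596690 fragments per library were assigned to genes. FPKM counts fragments per kilobase of a gene after division by a denominator set for each library. The recovered denominator was 0.970 and 1.03 times the assigned fragments in KO_IR and 1.18 and 1.19 times in WT_IR. It was 0.946 and 0.951 times in KO and 0.921 and 0.932 times in WT. For a 1 kb gene, 0.148 to 0.206 FPKM is what 3 fragments amount to, a limit from counting alone. Differences below are on the log2(FPKM + 1) scale with their standard error, from limma fitted to all 8 libraries, and a call is a Benjamini-Hochberg adjusted p under 0.05 over the 15607 genes tested in that comparison. Because replicates are pools, these p-values measure the spread between pools. The targeted gene, Ehmt2, had 27.3 and 26.3 FPKM in KO_IR, 34.5 and 35.8 FPKM in WT_IR, 28.1 and 26.4 FPKM in KO, and 33.4 and 30.3 FPKM in WT. The KO minus WT difference of Ehmt2 was -0.22 ± 0.083 and did not pass (adjusted p = 0.370). The KO_IR minus WT_IR difference of Ehmt2 was -0.38 ± 0.083 (adjusted p = 0.0140), and it no longer passed without KO_IR replicate 2, WT_IR replicate 1 or WT_IR replicate 2 (adjusted p = 0.0584, 0.0529 and 0.0785). The labels do not say which exons were deleted, so the level of Ehmt2 is a partial check of the genotype. The deposited values hold a scaling that differs by group. Rescaled to TPM, the median of all tested genes shifts by 0.49 in WT_IR minus WT, by -0.35 in KO_IR minus WT_IR and by -0.43 in the interaction, and the members' values on that scale are given where a call changes. With median-of-ratios and quantile scaling the shift in WT_IR minus WT was smaller, at 0.027 and -0.072.

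Of the 9 transporter genes 8 passed the expression filter (a mean of at least 0.5 FPKM), and none of these 8 fell below 4.45 FPKM in any library. Slc22a12, which encodes the apical urate exchanger URAT1, did not pass it. It had 2 and 0 fragments in KO_IR, 0 and 0 in WT_IR, 0 and 3 in KO, and 0 and 3 in WT, at most 0.0863 FPKM. In the GENCODE annotation of GRCm38, 682 bases (30.1%) of the exonic bases of Slc22a12 lie over exons of Nrxn2 on the opposite strand, and Nrxn2 is listed at 0 in all 8 libraries. Every other listed gene within 100 kb of Slc22a12 is also at 0 in all 8 libraries. Whether the counting used strand is not stated, and why this region is near 0 was not tested. The level of Slc22a12 in these kidneys is thus uncertain, and as it did not pass the filter it enters no comparison.

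Slc22a6 (ENSMUSG00000024650, GRCm38 chr19:8617996-8628299, plus strand), which encodes the organic anion exchanger OAT1, had 230.1 and 188.0 FPKM in KO_IR, 59.7 and 36.0 FPKM in WT_IR, 274.0 and 235.0 FPKM in KO, and 303.9 and 275.0 FPKM in WT. Both WT_IR libraries lay below every other library, and the 4 groups did not overlap. Slc22a8 (ENSMUSG00000063796, chr19:8591254-8611834, plus strand), which encodes OAT3, had 133.7 and 113.2 FPKM in KO_IR, 7.57 and 4.98 FPKM in WT_IR, 160.5 and 163.1 FPKM in KO, and 134.8 and 111.0 FPKM in WT. The KO_IR and WT libraries of Slc22a8 overlapped, the KO libraries were above both, and the WT_IR libraries were far below all others. Slc22a8 in WT_IR was at 5.11% of its WT mean and Slc22a6 at 16.5% of its own. The ratio of Slc22a8 to Slc22a6 FPKM was 0.581 and 0.602 in KO_IR, 0.127 and 0.139 in WT_IR, 0.586 and 0.694 in KO, and 0.444 and 0.404 in WT. Within WT_IR, Slc22a8 was thus lower relative to Slc22a6 than in the other 6 libraries.

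The genes of OAT1 and OAT3 are neighbours on chromosome 19, read in the same direction with 6162 bases between them, and their promoters are shown because both fell together in WT_IR. Each sequence is RefSeq's for GRCm38.p6, plus strand, from 250 bases before to 50 bases after the RefSeq start, and capitals mark CG dinucleotides, the sites of DNA methylation. Slc22a6 covers chr19:8617746-8618045. Slc22a8 covers chr19:8592932-8593231, and its RefSeq start lies 1928 bases inside the gene start of the deposited table.
Slc22a6: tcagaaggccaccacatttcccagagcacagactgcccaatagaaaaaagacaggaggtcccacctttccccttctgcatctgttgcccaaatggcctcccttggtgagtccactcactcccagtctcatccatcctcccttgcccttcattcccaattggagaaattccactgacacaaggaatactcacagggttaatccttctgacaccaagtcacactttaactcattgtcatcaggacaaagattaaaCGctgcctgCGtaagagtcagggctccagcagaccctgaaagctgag
Slc22a8: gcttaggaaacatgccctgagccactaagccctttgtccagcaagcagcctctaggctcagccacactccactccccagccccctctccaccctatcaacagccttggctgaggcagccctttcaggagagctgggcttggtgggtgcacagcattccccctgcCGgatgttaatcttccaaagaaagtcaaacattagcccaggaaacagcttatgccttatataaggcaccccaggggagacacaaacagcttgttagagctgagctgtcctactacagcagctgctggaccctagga
The Slc22a6 window holds 2 CG dinucleotides and the Slc22a8 window 1, while the median over 32851 mouse promoters of this length is 7. CAAAGTCCA, an HNF4 element searched on both strands, was in none of the 7 transporter genes with a RefSeq promoter, against 0.475% of all promoters, and AGGTCA, a core motif of nuclear receptors, was in Slco1a1 alone, at 2 places, against 16.3% of all. With a share as low as 0.475%, the absence of CAAAGTCCA from 7 promoters carries no information, and only exact letters were searched. The motifs were chosen with the sequences in view, and a match or its absence is a description of these letters, not of binding.

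Slc22a7 (ENSMUSG00000067144, chr17:46432185-46438477, minus strand) encodes OAT2, an organic anion transporter that in rodents is found in the straight part of the proximal tubule. Its level was 19.7 and 28.3 FPKM in KO_IR, 6.11 and 9.15 FPKM in WT_IR, 48.3 and 100.2 FPKM in KO, and 63.9 and 82.6 FPKM in WT. Both IR groups lay below both groups without IR, WT_IR lay below KO_IR, and the KO libraries differed from each other more than those of any other group. Slco1a1 (ENSMUSG00000041698, chr6:141907282-141946962, minus strand) encodes Oatp1a1, a brush border carrier whose expression in mouse kidney depends on androgens. It had 11.6 and 7.74 FPKM in KO_IR, 4.45 and 5.08 FPKM in WT_IR, 13.4 and 6.49 FPKM in KO, and 8.14 and 11.1 FPKM in WT. The WT_IR libraries were the lowest, while the other 3 groups overlapped. Slco1a1 has close paralogs, so reads may have been shared among them.

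Slc22a2 (ENSMUSG00000040966, chr17:12584189-12628465, plus strand), which encodes the cation uptake carrier OCT2, had 114.2 and 114.4 FPKM in KO_IR, 55.9 and 51.1 FPKM in WT_IR, 140.6 and 147.0 FPKM in KO, and 145.5 and 144.7 FPKM in WT. Slc47a1 (ENSMUSG00000010122, chr11:61343401-61378345, minus strand), which encodes its apical partner MATE1, had 183.3 and 172.8 FPKM in KO_IR, 76.7 and 69.7 FPKM in WT_IR, 204.9 and 191.7 FPKM in KO, and 190.5 and 188.7 FPKM in WT. For both cation genes WT_IR was lowest and KO_IR lay below KO and WT, without overlap. KO and WT overlapped for Slc22a2 and did not for Slc47a1. Relative to WT, WT_IR kept 36.9% of the Slc22a2 level and 38.6% of the Slc47a1 level.

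Slc22a4 (ENSMUSG00000020334, chr11:53983123-54028090, minus strand) encodes OCTN1, the carrier of the antioxidant ergothioneine. Its level was 27.0 and 21.9 FPKM in KO_IR, 11.1 and 8.52 FPKM in WT_IR, 29.9 and 29.0 FPKM in KO, and 18.9 and 16.5 FPKM in WT. WT was below KO and below KO_IR, WT_IR was below WT, and no groups overlapped. Abcc4 (ENSMUSG00000032849, chr14:118482692-118706219, minus strand) encodes MRP4, an ATP-driven efflux pump for cyclic nucleotides, urate and conjugated drugs. It had 12.5 and 10.9 FPKM in KO_IR, 13.4 and 11.3 FPKM in WT_IR, 15.3 and 13.8 FPKM in KO, and 7.20 and 7.47 FPKM in WT. For Abcc4 the WT libraries stood below the other 6, KO was highest, and the 2 IR groups overlapped.

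**Figure D1:**
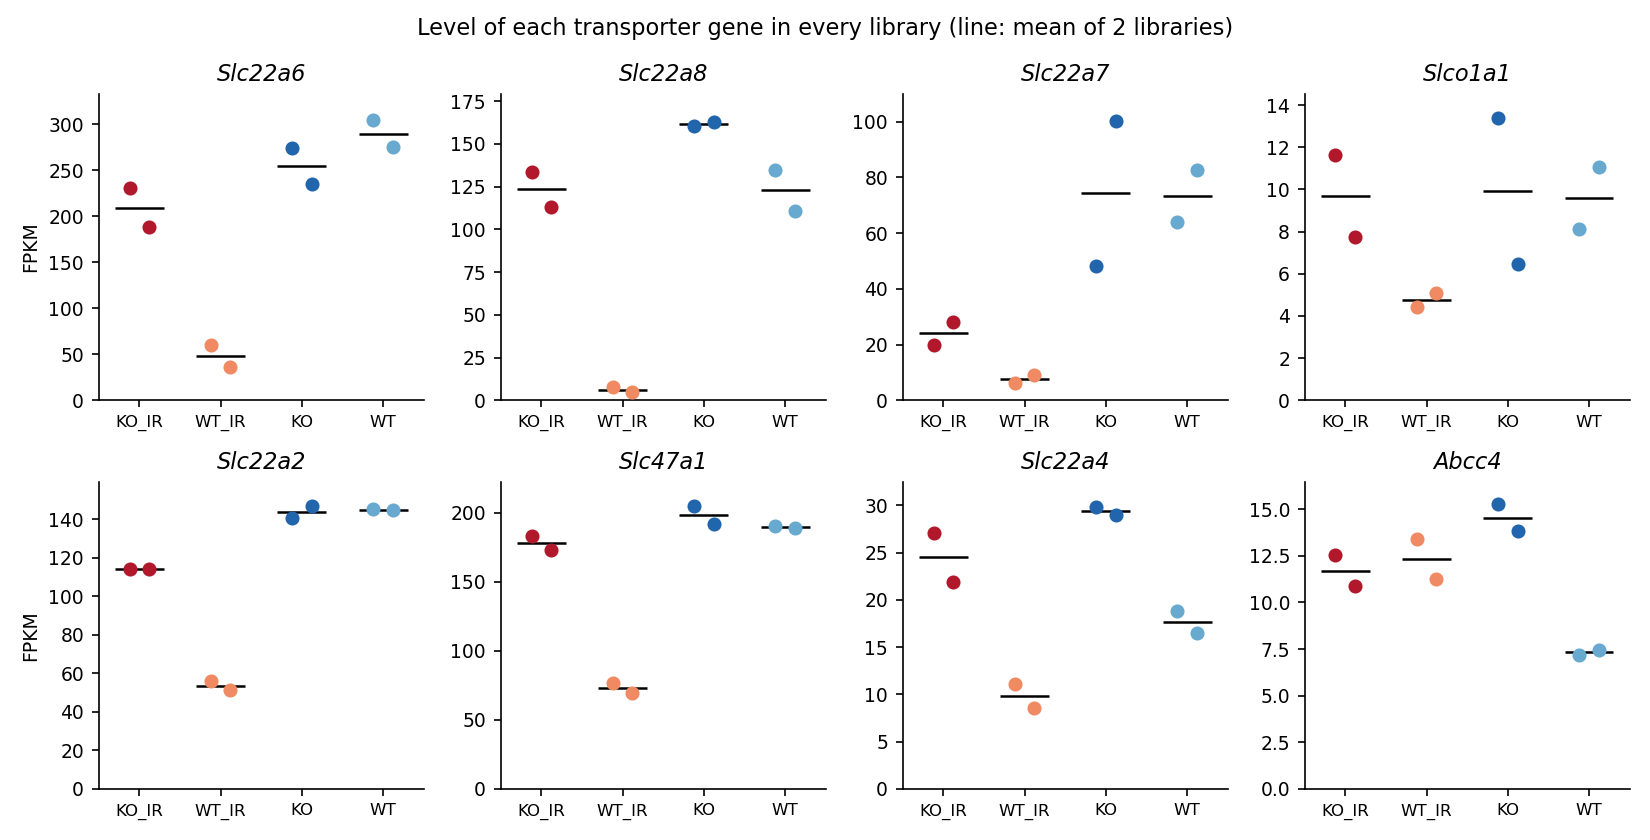
Level in FPKM (vertical axis, from 0, a scale of its own for each gene) of the 8 transporter genes that passed the expression filter, in the 2 libraries of KO_IR, WT_IR, KO and WT, with a line at the group mean. The lowest points are those of WT_IR, except for Abcc4, where the WT libraries, at 7.20 and 7.47 FPKM, are the lowest. The share of all tested genes with such an order was not computed, and 23.2% were called lower in WT_IR than in WT.

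Ordered by FPKM within each group, Slc22a6 led in KO_IR, KO and WT and Slc47a1 led in WT_IR. In KO_IR the order was Slc22a6, Slc47a1, Slc22a8, Slc22a2, Slc22a4, Slc22a7, Abcc4 and Slco1a1, where Slc22a8 and Slc22a2, Slc22a4 and Slc22a7, and Abcc4 and Slco1a1 overlapped. In WT_IR it was Slc47a1, Slc22a2, Slc22a6, Abcc4, Slc22a4, Slc22a7, Slc22a8 and Slco1a1, where Slc22a2 overlapped Slc22a6 and each of the last 4 overlapped its neighbour. In KO it was Slc22a6, Slc47a1, Slc22a8, Slc22a2, Slc22a7, Slc22a4, Abcc4 and Slco1a1, and in WT it was Slc22a6, Slc47a1, Slc22a2, Slc22a8, Slc22a7, Slc22a4, Slco1a1 and Abcc4, with no neighbours overlapping in either group. Slc22a8 supplied 17.8% of the summed FPKM of the 9 genes in KO_IR, 2.92% in WT_IR, 18.3% in KO and 14.4% in WT. Abcc4 supplied 1.68% in KO_IR, 5.72% in WT_IR, 1.64% in KO and 0.858% in WT. The summed FPKM of the 9 genes was 732 and 657 in KO_IR, 235 and 196 in WT_IR, 887 and 886 in KO, and 873 and 837 in WT.

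The first comparison asks how these transporter genes differ after IR in wild-type kidneys. In WT_IR relative to WT 6 of the 8 fell and 1, Abcc4, rose. Over all tested genes 42.3% were called in this comparison, 23.2% lower and 19.1% higher. The median difference of the 8 genes was -1.39, against -0.023 over all tested genes. The anion carriers of the SLC22 family fell most, with Slc22a8 at -4.11 ± 0.18 (adjusted p = 4.59e-05), Slc22a7 at -3.12 ± 0.36 (adjusted p = 0.000547) and Slc22a6 at -2.61 ± 0.23 (adjusted p = 0.000207). The pair that moves organic cations fell by similar amounts, Slc22a2 by 1.42 ± 0.082 (adjusted p = 6.23e-05) and Slc47a1 by 1.36 ± 0.091 (adjusted p = 8.68e-05). Slc22a4 fell by 0.79 ± 0.15 (adjusted p = 0.00465), a call that was lost on the TPM scale (-0.34, adjusted p = 0.0763). The efflux pump gene Abcc4 rose by 0.67 ± 0.11 (adjusted p = 0.00287) and its WT_IR mean was 168% of its WT mean. Slco1a1 differed by -0.87 ± 0.32 (95% interval -1.62 to -0.11, adjusted p = 0.0660) and did not pass. Slco1a1 did pass without KO replicate 1 or 2 (adjusted p = 0.0206 and 0.0204). On the TPM scale the differences were -3.74 for Slc22a8, -2.72 for Slc22a7, -2.12 for Slc22a6, -0.92 for Slc22a2, -0.86 for Slc47a1 and 1.21 for Abcc4, each still called.

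The matching comparison in knockout kidneys set KO_IR against KO, and none of the 8 transporter genes was called by limma. Among them 3, Slc22a2, Slc22a7 and Abcc4, were under 0.05 before adjustment, and 1.03% of all tested genes were called, 0.948% higher and 0.0769% lower. With voom on the recovered fragments 1 transporter gene, Slc22a7, was called. The median difference of the 8 genes was -0.29, against -0.019 over all tested genes. For Slc22a7 the difference was -1.52 ± 0.36 (95% interval -2.36 to -0.68, adjusted p = 0.122), and the KO_IR mean was 32.3% of the KO mean. The voom value for Slc22a7 was -1.54 (adjusted p = 0.0397). The anion exchangers differed by -0.39 ± 0.18 for Slc22a8 (95% interval -0.82 to 0.040, adjusted p = 0.440) and by -0.29 ± 0.23 for Slc22a6 (95% interval -0.83 to 0.26, adjusted p = 0.681). Slc22a2 differed by -0.33 ± 0.082 (95% interval -0.52 to -0.14, adjusted p = 0.143) and Slc47a1 by -0.15 ± 0.091 (95% interval -0.37 to 0.059, adjusted p = 0.555). Slc22a4 differed by -0.26 ± 0.15 (adjusted p = 0.535), Abcc4 by -0.29 ± 0.11 (adjusted p = 0.337) and Slco1a1 by 0.016 ± 0.32 (adjusted p = 0.993). A p over the threshold with 2 pools a group does not show that these levels were equal.

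**Figure D2:**
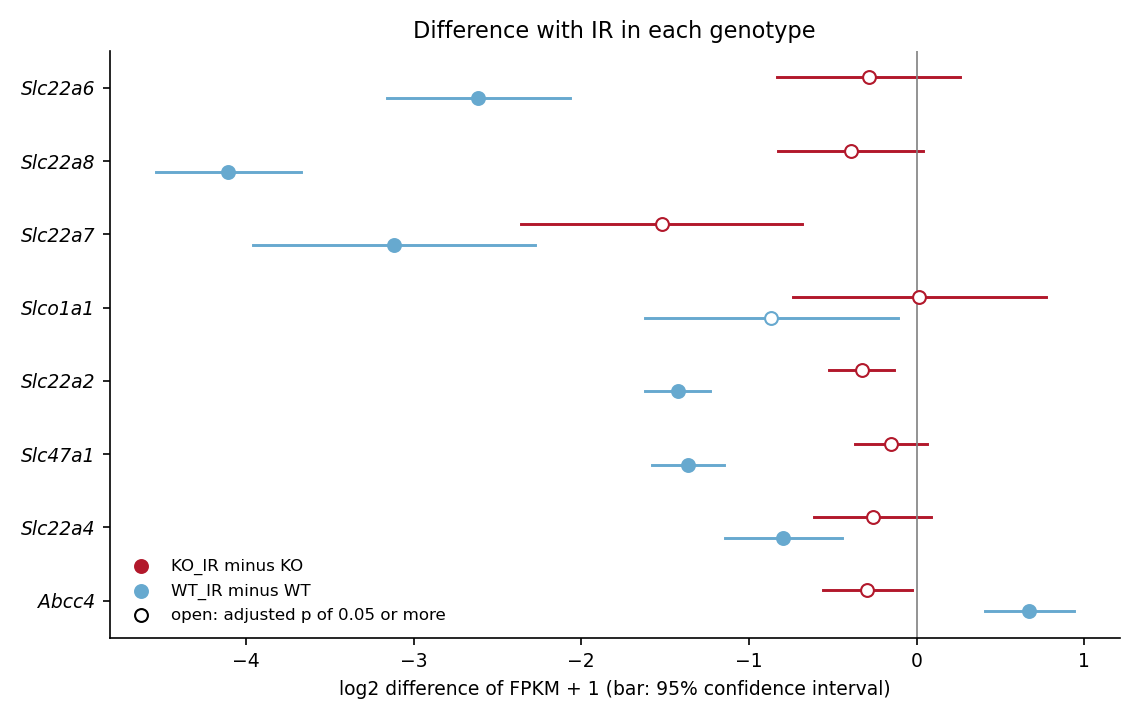
Difference with IR on the log2(FPKM + 1) scale (horizontal axis) for each of the 8 transporter genes, KO_IR minus KO in red above WT_IR minus WT in blue, with 95% confidence intervals as bars and filled points for an adjusted p under 0.05. The filled blue points run from -4.11 for Slc22a8 to 0.67 for Abcc4, and all red points are open.

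Whether the response to IR differed between genotypes was tested by the interaction, the KO_IR minus KO difference less the WT_IR minus WT difference. A called positive interaction was found for 4 transporter genes and a called negative one for 1, Abcc4, against 16.3% of all tested genes called, 9.62% positive and 6.68% negative. The interaction was 3.71 ± 0.26 for Slc22a8 (adjusted p = 0.00276) and 2.33 ± 0.33 for Slc22a6 (adjusted p = 0.00666). For the cation carriers it was 1.10 ± 0.12 for Slc22a2 (adjusted p = 0.00397) and 1.21 ± 0.13 for Slc47a1 (adjusted p = 0.00402). These 4 genes were thus lower after IR in wild-type kidneys by more than in knockout kidneys. Abcc4 had an interaction of -0.97 ± 0.16 (adjusted p = 0.0101), with a positive difference in wild-type kidneys and a negative one, not called, in knockout kidneys. The genotypes differed in Abcc4 by -0.069 with IR and by 0.90 without IR. On the TPM scale these differences were -0.42 (adjusted p = 0.0223) and 1.03 (adjusted p = 0.0276). The genotype difference of Abcc4 was thus larger in size without IR on both scales. The interaction of Slc22a7 was 1.59 ± 0.50 (95% interval 0.41 to 2.78, adjusted p = 0.0762) and did not pass, but it passed without KO replicate 2 (2.11, adjusted p = 0.0304), with voom (1.68, adjusted p = 0.0418) and with a filter at 5 FPKM (adjusted p = 0.0487). Slc22a4 (0.53 ± 0.21, adjusted p = 0.137) and Slco1a1 (0.88 ± 0.45, adjusted p = 0.239) did not pass either.

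After IR, the knockout kidneys had higher levels than the wild-type kidneys of 6 of the 8 transporter genes. The remaining 2, Slco1a1 and Abcc4, were not called. Of all tested genes 30.0% were called in KO_IR against WT_IR, 16.6% higher and 13.5% lower, and the median difference was 1.26 for the 8 genes and -0.0077 for all. Slc22a8 was higher in KO_IR by 4.11 ± 0.18 (adjusted p = 0.000152), with a KO_IR mean of 123 ± 14.5 FPKM and a WT_IR mean of 6.28 ± 1.83 FPKM (SD, n = 2 each). Slc22a6 was higher in KO_IR by 2.14 ± 0.23 (adjusted p = 0.00105), Slc47a1 by 1.27 ± 0.091 (adjusted p = 0.000379), Slc22a4 by 1.24 ± 0.15 (adjusted p = 0.00150) and Slc22a2 by 1.08 ± 0.082 (adjusted p = 0.000428). Slc22a7 was higher by 1.53 ± 0.36 (adjusted p = 0.0173), a call that was lost without KO_IR replicate 2 (1.28, adjusted p = 0.0821), without WT_IR replicate 1 (a difference of 1.28) and with no expression filter (adjusted p = 0.0514). Slco1a1 differed by 0.87 ± 0.32 (95% interval 0.11 to 1.62, adjusted p = 0.0815) and passed without KO replicate 1 or 2 (adjusted p = 0.0288 and 0.0286). Abcc4 differed by -0.069 ± 0.11 (95% interval -0.33 to 0.20, adjusted p = 0.686), and on the TPM scale by -0.42 (adjusted p = 0.0223).

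Without IR, the levels of 7 of the 8 transporter genes in knockout kidneys were not called different from wild type. Abcc4 was the 1 called gene and it rose in KO, while 0.218% of all tested genes were called in KO against WT, 0.16% higher and 0.0577% lower. It was higher by 0.90 ± 0.11 (95% interval 0.63 to 1.16, adjusted p = 0.0478), with a KO mean of 14.6 ± 1.02 FPKM and a WT mean of 7.34 ± 0.190 FPKM (SD, n = 2 each). This call lies at the threshold and was lost when any 1 of the 8 libraries was left out (adjusted p = 0.0740 to 0.215). Slc22a4 differed by 0.71 ± 0.15 (95% interval 0.36 to 1.06, adjusted p = 0.147), with a KO mean at 166% of the WT mean. Slc22a8 differed by 0.40 ± 0.18 (95% interval -0.032 to 0.83, adjusted p = 0.448) and Slc22a6 by -0.19 ± 0.23 (95% interval -0.73 to 0.36, adjusted p = 0.803). The cation pair differed by 0.063 ± 0.091 for Slc47a1 (95% interval -0.15 to 0.28, adjusted p = 0.830) and -0.013 ± 0.082 for Slc22a2 (95% interval -0.21 to 0.18, adjusted p = 0.968). The intervals were wider for Slc22a7 (-0.90 to 0.78) and Slco1a1 (-0.77 to 0.74), the genes whose KO libraries lay furthest apart. WT is shared by this comparison, WT_IR minus WT and the interaction, so for Abcc4 each rests on the same 2 low WT libraries.

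**Figure D3:**
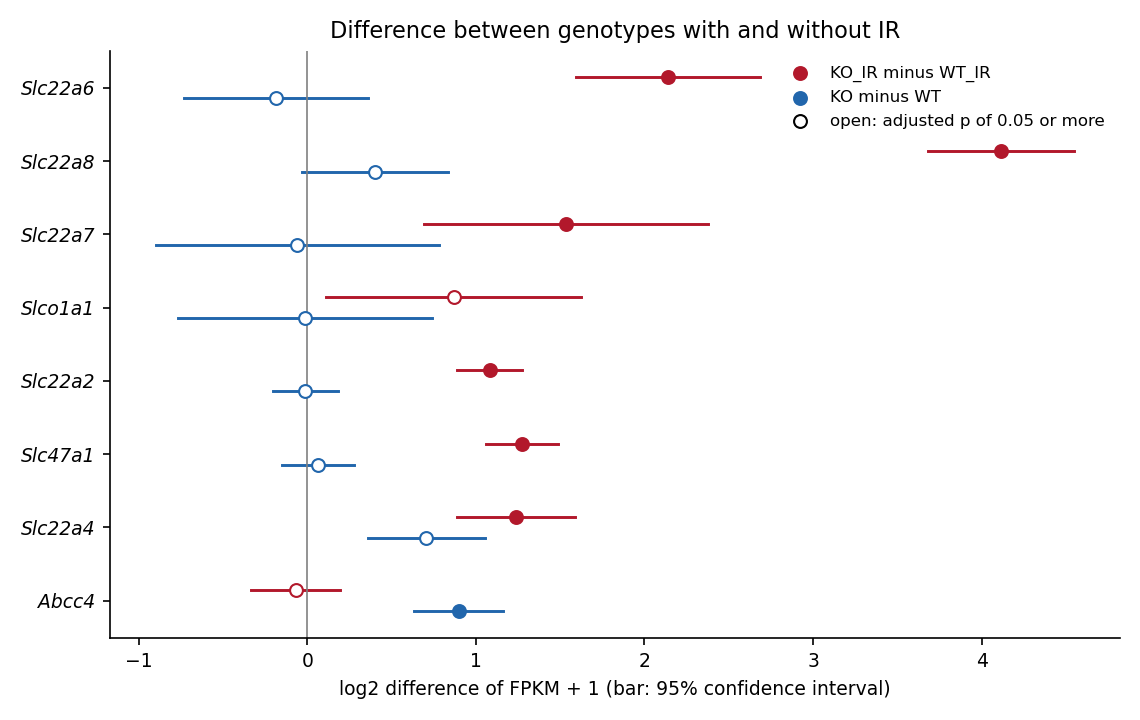
Difference between genotypes on the log2(FPKM + 1) scale (horizontal axis) for each of the 8 transporter genes, KO_IR minus WT_IR in red above KO minus WT in blue, with 95% confidence intervals as bars and filled points for an adjusted p under 0.05. Red points are filled for 6 genes, up to 4.11 for Slc22a8, and the only filled blue point is Abcc4 at 0.90.

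The promoter of Abcc4, the gene that rose in WT_IR and KO, is shown for comparison with those of the anion exchangers, again with CG dinucleotides in capitals. It is RefSeq's for GRCm38.p6, minus strand, chr14:118706170-118706469.
Abcc4: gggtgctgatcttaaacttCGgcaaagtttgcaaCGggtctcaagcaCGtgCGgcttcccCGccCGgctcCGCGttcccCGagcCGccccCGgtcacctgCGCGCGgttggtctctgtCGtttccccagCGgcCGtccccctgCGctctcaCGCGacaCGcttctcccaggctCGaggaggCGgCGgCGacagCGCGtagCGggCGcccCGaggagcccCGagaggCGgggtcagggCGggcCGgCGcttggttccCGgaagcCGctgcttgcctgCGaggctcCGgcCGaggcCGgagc
This window holds 41 CG dinucleotides and that of Slc22a4 holds 29, against the median of 7. Slc22a2 has 8, close to the median, Slc22a12 has 6 and Slco1a1 has 0. A further RefSeq start of Abcc4, 29288 bases inside the gene, has 6. No methylation was measured, so the count describes only these letters.

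Most of these transporters belong to the proximal tubule, whose markers differed between the same groups. All 16 proximal tubule markers in the table, among them Miox (-2.64) and Gatm (-1.86), fell in WT_IR relative to WT (median difference -1.50) and all 16 were higher in KO_IR than in WT_IR (median 1.60). On the TPM scale 14 of the 16 were called in each. Of all tested genes 23.2% were lower and 19.1% higher in WT_IR relative to WT, and 16.6% were higher in KO_IR than in WT_IR. Their summed level was 9886 and 8369 FPKM in KO_IR, 3036 and 2718 FPKM in WT_IR, 10588 and 9880 FPKM in KO, and 10109 and 10610 FPKM in WT. Markers of injured tubule cells ran the other way, with 9 of 9 higher in WT_IR than in WT. Their summed level was 2181 and 3019 FPKM in KO_IR, 13510 and 14139 FPKM in WT_IR, 668 and 1056 FPKM in KO, and 1129 and 1103 FPKM in WT. A single marker reached 12151 FPKM in a WT_IR library, so that sum is mostly 1 gene. The median of the markers' group means was 31.9 FPKM in KO_IR, 147 FPKM in WT_IR, 4.05 FPKM in KO and 2.39 FPKM in WT. The sum of 7 macrophage markers ranged from 214 to 278 FPKM in KO_IR, 525 to 538 FPKM in WT_IR, 65.4 to 100 FPKM in KO and 52.9 to 55.2 FPKM in WT, and all 7 rose in WT_IR. The sum of 6 fibroblast markers ranged from 107 to 148 FPKM in KO_IR, 256 to 331 FPKM in WT_IR, 31.5 to 42.8 FPKM in KO and 30.9 to 34.7 FPKM in WT, and all 6 rose in WT_IR. No marker of these 4 lists was at 0 in any library. Their part in the transporter results was not tested.

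Set against the proximal tubule markers, the transporter genes did not all keep the same proportion. Per 1000 FPKM of summed proximal tubule markers, Slc22a8 averaged 13.5 FPKM in KO_IR, 2.16 FPKM in WT_IR, 15.8 FPKM in KO and 11.9 FPKM in WT. Slc22a6 averaged 22.9 FPKM in KO_IR, 16.4 FPKM in WT_IR, 24.8 FPKM in KO and 28.0 FPKM in WT by the same measure. Relative to the sum of the markers, which the most abundant ones dominate, both anion exchangers were lower in WT_IR than in the other groups. Single markers differed by -2.75 to -0.80 in WT_IR minus WT, a range that holds Slc22a6 (-2.61) and not Slc22a8 (-4.11). Slc22a7 averaged 2.68 FPKM in KO_IR, 2.69 FPKM in WT_IR, 7.35 FPKM in KO and 7.05 FPKM in WT on this measure, low in both IR groups. The 8 markers of the late proximal tubule (S3) differed by -1.70 to -0.00097 in KO_IR minus KO (median -0.26). In WT_IR minus WT they differed by -3.21 to -0.34 (median -1.80). These ranges hold Slc22a7, at -1.52 and -3.12. The cation carriers were higher in WT_IR than in WT relative to the markers, by 1.33 times for Slc22a2 (18.6 against 14.0 FPKM) and 1.39 times for Slc47a1 (25.5 against 18.3 FPKM). Slc22a4 averaged 2.68 FPKM in KO_IR, 3.40 FPKM in WT_IR, 2.88 FPKM in KO and 1.71 FPKM in WT, and Slco1a1 1.05, 1.67, 0.962 and 0.924 FPKM in the same groups. Abcc4 averaged 1.28 FPKM in KO_IR, 4.28 FPKM in WT_IR, 1.42 FPKM in KO and 0.709 FPKM in WT. These ratios are descriptions and carry no test.

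**Figure D4:**
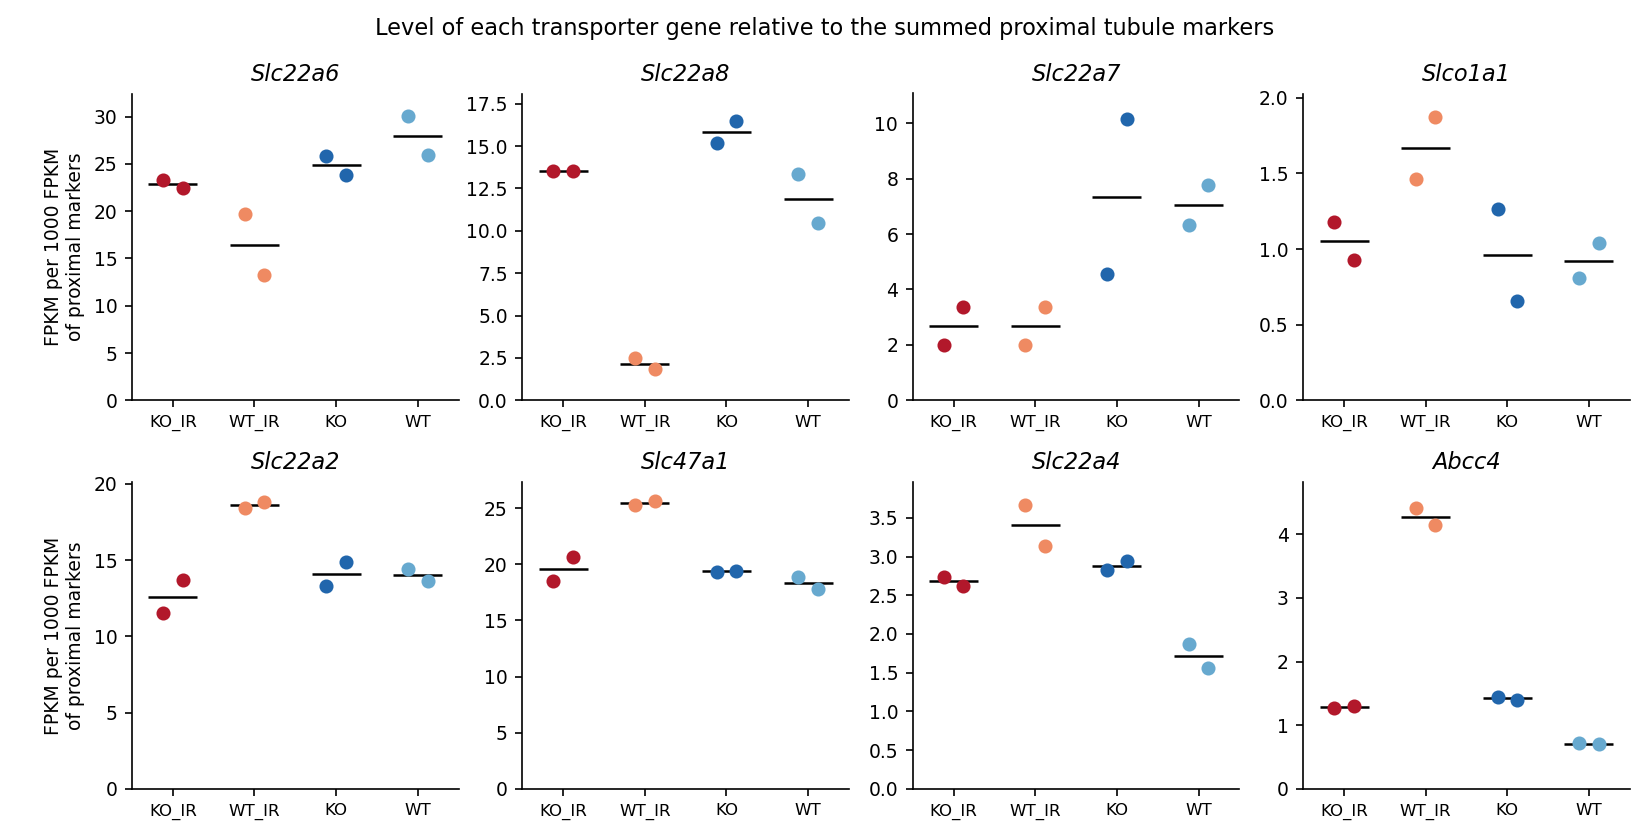
Level of each of the 8 transporter genes per 1000 FPKM of summed proximal tubule markers (vertical axis, from 0, a scale of its own for each gene) in the 2 libraries of each group, with a line at the group mean. Slc22a8 is low in WT_IR (mean 2.16), Slc22a7 is low in both KO_IR (2.68) and WT_IR (2.69), and Abcc4 is high in WT_IR (4.28).

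Other drug and organic ion transporters of the SLC22, SLCO, SLC47 and ABC families gave a mixed picture with most members lower after IR in wild type. Of 37 such genes 28 were tested, and 19 fell and 3 rose in WT_IR relative to WT, with a median of -0.93, while 23.2% of all tested genes were lower and 19.1% higher. Slc22a28 (-2.26 ± 0.13), Slc22a30 (-2.13 ± 0.14) and Slc22a18 (-1.95 ± 0.16) were among those that fell, and reads may be shared between the close paralogs Slc22a28 and Slc22a30. Abcc3, which encodes the basolateral efflux pump MRP3, rose by 1.81 ± 0.15 (adjusted p = 0.000161), with 4.64 and 3.79 FPKM in WT_IR and 0.411 and 0.556 FPKM in WT. The ABCC family was split, since Abcc2 (-1.04, adjusted p = 0.00370) and Abcc6 (-0.95, adjusted p = 0.00167) fell. Abcc10 fell as well (-0.42, adjusted p = 0.0164), but on the TPM scale it was at 0.019 (adjusted p = 0.904), and the call was lost without WT_IR replicate 1 or WT replicate 1 (adjusted p = 0.0980 and 0.0882). Abcc1 (-0.016) was not called, and Abcc5 (0.20) was called on the TPM scale alone (0.70, adjusted p = 0.00485). In KO_IR relative to KO none of the 28 was called by limma (7 at an unadjusted p under 0.05, 2 by voom), and in KO relative to WT none (2 unadjusted, 0 by voom). Of all tested genes limma called only 1.03% and 0.218% in these comparisons. In KO_IR relative to WT_IR 18 were higher and 1, Abcc3, was lower, against 16.6% higher and 13.5% lower of all tested genes. On the TPM scale 15 fell and 6 rose in WT_IR relative to WT, and 14 were higher and 4 lower in KO_IR relative to WT_IR.

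Urate and dicarboxylate carriers, which include the genes that supply the counter-ion of OAT1 and OAT3, followed the anion exchangers in direction. Of 10 genes 9 were tested, and 7 fell and 1 rose in WT_IR relative to WT, with a median of -1.20 and the same shares over all tested genes as above. Slc13a3, which encodes the basolateral sodium-dicarboxylate carrier NaDC3, had 174 and 146 FPKM in KO_IR, 53.5 and 35.6 FPKM in WT_IR, 211 and 182 FPKM in KO, and 150 and 130 FPKM in WT. Its WT_IR libraries were below all others, and it fell by 1.66 ± 0.20 (adjusted p = 0.000681), with an interaction of 1.36 ± 0.28 (adjusted p = 0.0205). Slc17a3 (-1.43 ± 0.12), Slc13a2 (-1.29 ± 0.12) and Slc5a8 (-1.20 ± 0.12) also fell. In KO_IR relative to KO, and in KO relative to WT, none of the 9 was called by limma (0 and 1 at an unadjusted p under 0.05) or by voom. Of all tested genes limma called only 1.03% and 0.218% in these comparisons. In KO_IR relative to WT_IR 7 were higher and 1, the sulfate carrier gene Slc13a1, was lower, against 16.6% higher and 13.5% lower of all tested genes.

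Scaffolds and transcription factors of transporter genes were measured too, among them HNF4-alpha, a liver-enriched factor that also acts in the proximal tubule. Of 14 such genes 13 were tested, and 7 fell and none rose in WT_IR relative to WT (10 at an unadjusted p under 0.05, and 8 lower and 1 higher by voom), where 42.3% of all tested genes were called, 23.2% lower and 19.1% higher. On the TPM scale 4 fell and 3 rose, with quantile scaling 6 fell and 1 rose, and with median-of-ratios scaling 7 fell and none rose. Of the scalings tried, TPM thus changed this split most. Hnf4a had 183 and 178 FPKM in KO_IR, 99.2 and 86.9 FPKM in WT_IR, 226 and 205 FPKM in KO, and 229 and 224 FPKM in WT. Its WT_IR libraries lay below all others, it fell by 1.28 ± 0.10 (adjusted p = 0.000142), and its interaction was 1.02 ± 0.14 (adjusted p = 0.00661). Ppara fell by 1.15 ± 0.17 (adjusted p = 0.00174) and Rxra by 0.79 ± 0.083 (adjusted p = 0.000392). In KO_IR relative to KO none of the 13 was called by limma (4 unadjusted, 0 by voom), and in KO relative to WT none (1 unadjusted, 0 by voom). Of all tested genes limma called only 1.03% and 0.218% in these comparisons. In KO_IR relative to WT_IR 7 were higher and none lower, against 16.6% higher and 13.5% lower of all tested genes. On the TPM scale 3 of the 13 were higher and 3 lower there.

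**Figure D5:**
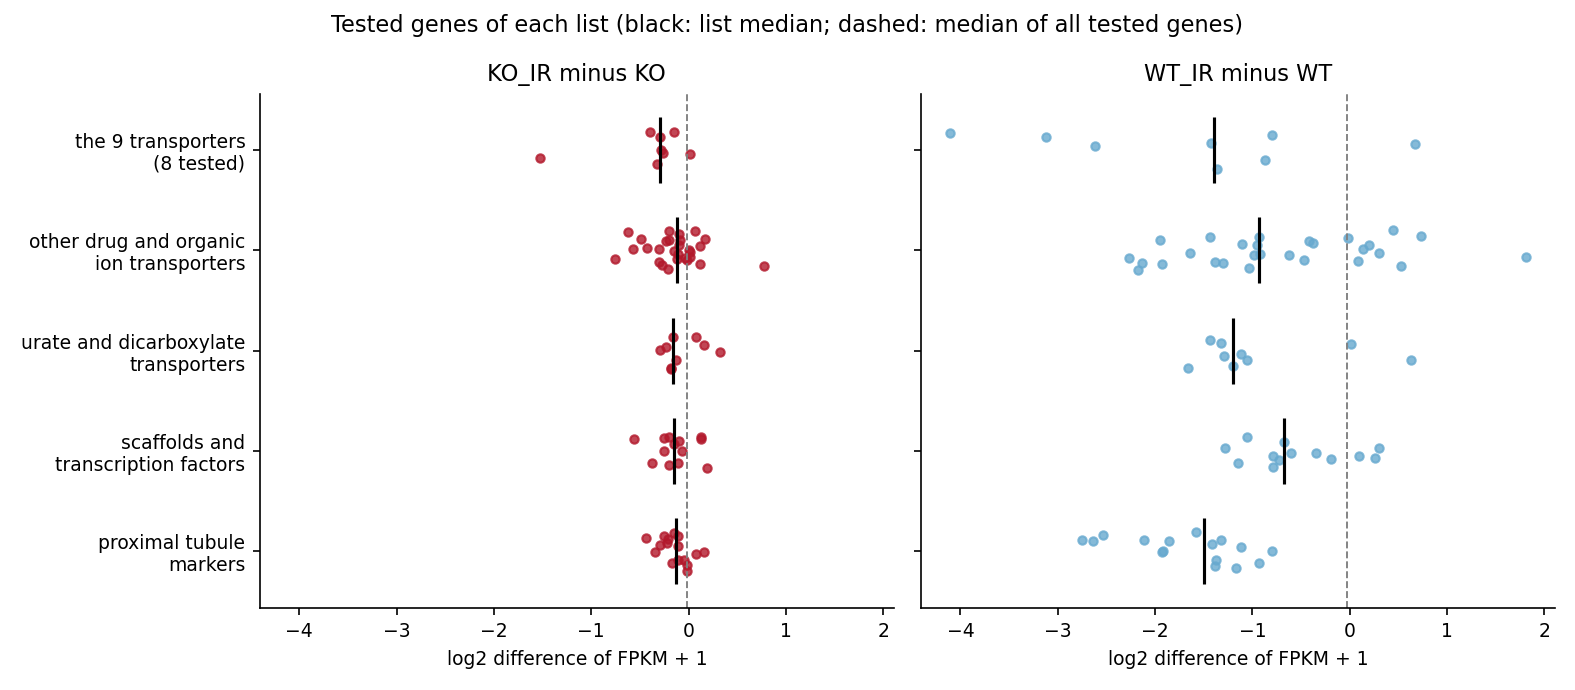
Difference with IR on the log2(FPKM + 1) scale (horizontal axis), KO_IR minus KO at left and WT_IR minus WT at right, with 1 point for each tested gene of the 9 transporters and 4 further lists, a black line at each list's median and a dashed line at the median of all tested genes. The medians at right run from -0.67 to -1.50 and those at left from -0.11 to -0.29.

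Genes close to the transporter genes on the chromosome did not all share their direction. Near Slc22a4, the carnitine carrier gene Slc22a5 fell by 0.93 in WT_IR relative to WT (adjusted p = 0.000894), while Pdlim4, 26838 bases away, rose by 1.54 (adjusted p = 0.000221). The KO minus WT differences of these neighbours of Slc22a4 were -0.12 for Slc22a5 (adjusted p = 0.755) and 0.47 for Pdlim4 (adjusted p = 0.277). Cldn10, 81689 bases from Abcc4, fell by 0.84 in WT_IR relative to WT (adjusted p = 0.000378), opposite to Abcc4, and differed by 0.010 between KO and WT (adjusted p = 0.977). Crip3, 409 bases from Slc22a7, differed by -0.068 in WT_IR relative to WT (adjusted p = 0.782; 0.26 on the TPM scale), against -3.12 for Slc22a7.

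The genes whose levels most resembled each transporter gene were found by Pearson's r of log2(FPKM + 1) over the 8 libraries, which fall into 4 groups, so r mostly restates the group means and is given as a description. Slc22a8 was most like Ces1e (r = 0.999), Mpc1 (0.998) and Egf (0.998), and Slc22a6 was most like Enpp2 (0.996), Cyp2d26 (0.995) and Gldc (0.995). Slc22a2 was most like Oxct1 (0.998), Gfm1 (0.997) and Uqcrc2 (0.997), and Slc47a1 was most like Tcn2 (0.999), Ces1e (0.997) and Aldh5a1 (0.997). Slc22a4 was most like Kynu (0.996), Il15 (0.994) and Cckar (0.993), and Slc22a7 most like Tmem86a (0.989), Rhov (0.988) and Anks1 (0.986). Slco1a1 was most like Gpn3 (0.991), Dll1 (0.975) and Arl8b (0.974), and Abcc4 most like Col5a2 (0.969), Ubqln2 (0.956) and Ppp1cb (0.936). Among the transporter genes themselves, Slc22a8 and Slc47a1 had the highest r (0.997), and Abcc4 had r of -0.33 to 0.26 with the others. A high r means a like pattern over the libraries and not a like size of change. In WT_IR minus WT, Slc22a8 differed by -4.11 and Slc47a1 by -1.36.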

How the data were processed

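RNA was measured in 8 libraries, 2 per group. The authors deposited FPKM values per gene with gene lengths and coordinates. Per the submitters' processing notes, reads were aligned with HISAT2 2.0.5 to mm10 (GRCm38.p6). No source used here names the counting tool or annotation release. Within each library, FPKM times gene length was divided by its smallest positive value, which was taken to be a single fragment. The results were whole numbers for 100% of genes with a positive value (relative tolerance 1e-06). Genes averaging at least 0.5 FPKM were fitted with limma 3.58.1 (R 4.3.3, mean-variance trend) on log2(FPKM + 1), 4 group means over 8 libraries, with Benjamini-Hochberg adjustment within each of 5 comparisons. The fit was tested on simulated data. The 9 transporter genes, gene lists and tests were chosen with earlier results of these data known. Named genes were all 9, up to 4 genes per list with the smallest p in WT_IR minus WT, tested neighbours within 100 kb, the 3 most alike protein-coding genes averaging at least 2 FPKM, and Ehmt2. Some genes under this rule are not reported here. Slc13a1 and Abcc1, Abcc2, Abcc5, Abcc6 and Abcc10 were named after their values were seen. Alternatives were other pseudocounts (0.1, 5), filters, scalings (TPM, median-of-ratios, quantile), limma settings, a replicate block, limma's voom with trimmed-mean scaling on the recovered fragments, only the 2 groups compared, a fold of at least 2, and each library left out. In further marker lists, WT_IR relative to WT, 7 of 8 late proximal (S3), 5 of 6 thick ascending limb and 4 of 7 tested collecting duct genes fell and none rose, and of 6 endothelium genes 4 rose and 1 fell. Of all tested genes 23.2% fell and 19.1% rose in that comparison.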

Additional observations from a re-analysis of the deposited data

Results flagged for a closer look

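For 5 transporter genes the response to IR differed between genotypes by the interaction test in limma, (KO_IR minus KO) less (WT_IR minus WT), which called 16.3% of all tested genes, 9.62% positive and 6.68% negative. The interaction was 3.71 for Slc22a8, 2.33 for Slc22a6, 1.21 for Slc47a1 and 1.10 for Slc22a2, with KO_IR means at 76.3%, 82.1%, 89.8% and 79.5% of KO, against WT_IR means at 5.11%, 16.5%, 38.6% and 36.9% of WT. For Abcc4 it was -0.97, with a KO_IR mean at 80.4% of KO and a WT_IR mean at 168% of WT. The genotypes differed in Abcc4 by -0.069 with IR and by 0.90 without IR (limma adjusted p = 0.0478, at the threshold). On the TPM scale the difference with IR was -0.42 (limma adjusted p = 0.0223) and that without IR was 1.03. The genotype difference of Abcc4 was thus larger in size without IR on both scales. Summed markers of proximal tubule, injured tubule, macrophages and fibroblasts differed between the same groups, and their part in these differences was not tested.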

How the results depend on the processing

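For the 8 transporter genes, 40 log2 differences were recomputed under the alternatives, 792 values in all, of which 743 kept direction and side of the threshold, 18 lost a call, 16 gained one and 15 changed sign. The count of called transporter genes in KO_IR relative to KO was 1 in place of 0 with a replicate block and with voom, Slc22a7 in both (adjusted p = 0.0245 with the block). In KO relative to WT it was 0 in place of 1 with a pseudocount of 5, no filter, quantile scaling, no trend, the replicate block, only the 2 groups and a fold of at least 2, and 0 to 0 with any library left out. The replicate block also brought Slc22a7 past the threshold in the interaction (adjusted p = 0.00988) and took Abcc4 out in KO minus WT (adjusted p = 0.0615). Same-numbered libraries correlated by -0.122 to 0.164 in their deviations from the group means and the labels do not tie the numbers to mice or days, so the block rests on a number alone.

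Sign changes were in differences that were not called, except that of Abcc10 in WT_IR minus WT, 0.019 on the TPM scale. In KO minus WT, Slc22a2 was 0.071 on the TPM scale, 0.085 with quantile scaling and -0.045 to 0.019 with a library left out (highest without KO replicate 1). Slc22a7 was 0.023 with TPM, 0.017 with quantile scaling and -0.58 to 0.46 with a library left out (positive without KO replicate 1 or WT replicate 2, the second at 0.12). Slco1a1 was 0.0016 with a pseudocount of 5, 0.060 with TPM and -0.49 to 0.46 with a library left out (positive without KO replicate 2 or WT replicate 2, the second at 0.18). Cldn10 was -0.071 to 0.092 with a library left out (negative without KO or WT replicate 2). In KO_IR minus KO, Slco1a1 was -0.46 to 0.49 (negative without KO_IR replicate 1 or KO replicate 2) and Slc22a5 was -0.22 to 0.037 (positive without KO_IR replicate 2). Abcc4 in KO_IR minus WT_IR was -0.18 to 0.045 (positive without KO_IR replicate 2 or WT_IR replicate 1). In WT_IR minus WT, Abcc1 was 0.43 with TPM, 0.0074 with median-of-ratios scaling, 0.0093 with voom and -0.14 to 0.11 with a library left out (positive without WT_IR or WT replicate 2), and Crip3 was 0.26 with TPM and -0.29 to 0.15 with a library left out (positive without WT_IR replicate 1 or WT replicate 2).

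Counts over all genes moved most in the small comparisons. KO_IR minus KO called 160 genes, 35 with no filter, 255 on the TPM scale, 330 with voom, 0 with only the 2 groups (1806 at an unadjusted p under 0.05) and 0 to 109 with a library left out. KO minus WT called 34, 7 with a pseudocount of 5, 19 with no filter, 16 with a mean of at least 5 FPKM, 9 with the block, 62 with voom, 0 with quantile scaling (1757 unadjusted), 0 with only the 2 groups (1755 unadjusted) and 0 to 17 with a library left out. WT_IR minus WT called 6596, and 4234 with a mean of at least 5 FPKM. KO_IR minus WT_IR called 4689, 7349 on the TPM scale and 2612 to 4557 with a library left out. The interaction called 2544, 4528 on the TPM scale, 1670 with no filter and 1289 to 2315 with a library left out. On the TPM scale the split of higher against lower genes was 7486 to 1554 in WT_IR minus WT (2980 to 3616 as deposited), 1432 to 5917 in KO_IR minus WT_IR (2583 to 2106) and 745 to 3783 in the interaction (1502 to 1042). The causes were not tested. With 2 pools a group, differences like that of Slco1a1 (a standard error of 0.32) are the least certain.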
